A study of Mus musculus with 12 samples.

Results

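The mouse sperm tail is stiffened by outer dense fibers, cysteine-rich rods that run along the axoneme, and its midpiece is wrapped in a helical mitochondrial sheath. The genes described here were listed together under these structures, though not each of them encodes a part of a fiber or sheath. The 10 are Odf1, Odf2, Odf3, Odf4, Oaz3, Smcp, Spata19, Gk2, Gykl1 and Spem1. They were taken by symbol from the deposited table, where all 10 were present among 28643 gene symbols, and all 10 passed the filter on low values in every comparison.

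Round spermatids transcribe these genes early and hold many of the mRNAs in ribonucleoprotein particles, since chromatin compaction later stops transcription. Smcp mRNA is a textbook case of such storage, with its protein made days later in elongated spermatids. An mRNA that is held back is found in total RNA but is poor in polysomes, the strings of ribosomes that translate an mRNA together, so comparing the 2 pools gives a reading of how far each mRNA was loaded.

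Round spermatids were sorted by flow cytometry, with cycloheximide present to hold ribosomes on their mRNAs, from testes of 8-week-old male mice. The control carried 1 intact copy of Igf2bp3 (Igf2bp3+/-), an m6A-binding protein, and the knockout carried 0 (Igf2bp3-/-), by a Cas9 frameshift. The sample titles give the control as Igf2bp3+/-, whereas the deposited table and the sample descriptions abbreviate it as WT, and the titles were followed. Each genotype had 3 libraries of total input RNA (RNA-seq) and 3 of mRNA carrying 4 or more ribosomes from a sucrose gradient (RNC-seq, for ribosome nascent-chain complex), 12 in all. By the study's methods, knockout males with impaired fertility were the ones used, and the allele came from a single guide.

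Values are FPKM, a read density corrected for transcript length and library size, and the depth of the libraries is unknown. The number of genes above 0 ranged from 21490 to 25633 per library. Igf2bp3 itself was measured at 33.4 to 38.6 FPKM in Igf2bp3+/- RNA-seq and 31.4 to 32.5 in Igf2bp3-/- RNA-seq, and at 31.4 to 43 and 40.6 to 43.1 in RNC-seq. A frameshift need not remove the mRNA, so these levels do not check the genotype labels. The 8 round spermatid markers were all present, with a summed level of 1048 to 1554 FPKM in RNA-seq. The 5 Sertoli markers in the table summed to 0.382 to 0.858 FPKM in RNA-seq, whereas the 6 Leydig cell markers summed to 14.6 to 21.6 FPKM in the control and 46.3 to 52.8 in the knockout. In bulk libraries fewer cells of a type and less RNA per cell cannot be told apart.

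The start sites of the mRNAs are shown first, because they are where ribosomes begin on each of these mRNAs. Each line gives 24 bases of the sense strand from the GENCODE M21 transcripts (GRCm38), 12 of them upstream, with the start codon in capitals. Of the 9 shown, all but Oaz3 begin with ATG, and Oaz3 is annotated as beginning with CTG. The start of Gykl1 is not shown.
Odf1: ggtgtgaccataATGgccgcactg
Odf2: tgatgcttaaccATGtctgcctca
Odf3: ggagagccagccATGgcagaggag
Odf4: actaggcctgtgATGgaacctgac
Oaz3: tgaacagagaaaCTGccttgtaac
Smcp: actctaaagaagATGagtgatcca
Spata19: gtaagtctgaagATGatcattaca
Gk2: ctgaccagtttcATGgcagcctcg
Spem1: ctagggaccaccATGgccatggct

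Start codon context did not single these genes out by count. Of the 10 transcripts, 8 had a purine 3 bases before the start codon, against 84.5% of 12756 coding genes tested, and 6 had a G right after it, against 51.5%. An ATG upstream of the start was present in 6 of the 10 and in 50.8% of all genes. Odf1, Odf2 and Smcp each held 3 upstream ATGs, a number reached or passed by 18.8% of genes, whereas Odf3, Oaz3 and Spata19 held 1 each and the other genes none. The last upstream ATG in each of the 3 transcripts is shown with 9 bases on either side, the ATG in capitals.
Odf1, 111 bases before the start: aagtgaatcATGtgtggctca
Odf2, 10 bases before the start: gcggctttgATGcttaaccat
Smcp, 67 bases before the start: agtatggaaATGctgaactaa

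In Odf1 and Smcp all 3 upstream reading frames closed ahead of the main start, after 6, 7 and 11 codons in Odf1 and after 6, 5 and 3 codons in Smcp. In Odf2 the last of the 3 ran past the start of the main frame, closing after 47 codons. The letters GGACT, a form of the m6A consensus searched here on the sense strand only, were present in 8 of the 10 transcripts and in 89% of all transcripts. Odf1 and Odf4 held none, and Smcp held 1, in its 5′ leader.

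The coding sequences of Smcp and Odf1 are shown because both proteins are rich in cysteine, and disulfide bonds between cysteines give the fibers and the mitochondrial capsule their strength. Cysteine made up 22.4% of the 143 Smcp codons and 16.5% of the 248 Odf1 codons, against a median of 1.87% over all genes. The first 300 coding bases of Smcp hold 30 cysteine codons among 100, in capitals here, many of them as adjacent pairs followed by proline.
Smcp: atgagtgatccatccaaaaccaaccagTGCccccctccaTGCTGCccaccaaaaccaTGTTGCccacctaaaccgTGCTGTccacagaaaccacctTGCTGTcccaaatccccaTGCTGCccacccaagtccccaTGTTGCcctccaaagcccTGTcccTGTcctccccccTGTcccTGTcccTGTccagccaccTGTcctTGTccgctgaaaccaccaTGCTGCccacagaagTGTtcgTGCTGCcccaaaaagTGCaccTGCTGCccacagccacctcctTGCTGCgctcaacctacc
Near its end Odf1 carries 6 repeats of Cys-Gly-Pro, from codon 210 to codon 227, with cysteine codons in capitals.
Odf1: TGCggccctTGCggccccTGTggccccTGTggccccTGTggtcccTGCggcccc

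Oaz3 has a further feature that concerns translation. Antizymes are made only when ribosomes slip by 1 base at the stop codon of a first reading frame, a step that polyamines favor. The slip is annotated as a gap of 1 base between exons of the transcript used for the other values here (Oaz3-204). Another transcript, Oaz3-202, has 1 exon and holds that base. The base left out of Oaz3-204 is at chr3:94436034 on the minus strand (GRCm38). The window chr3:94436020-94436046, read from Oaz3-202, is shown 5′ to 3′ on that strand with the stop triplet of the first frame in capitals.
Oaz3: ctccagtgctccTGAgtccctaggagg

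In the control, the 10 genes were not loaded alike. Odf1, Odf2 and Smcp were lower in RNC-seq than in RNA-seq by close to the same amount, with a ratio of mean FPKM of 0.547, 0.517 and 0.517. Odf3, Odf4 and Spata19 were higher in RNC-seq, with ratios of 1.39, 1.5 and 2.22. The remaining 4 genes, Oaz3, Gk2, Gykl1 and Spem1, lay between 0.869 and 1.09 and did not pass the test. The ratio is the translational efficiency (TE) as the study defined it, and it is relative, because FPKM is scaled to the mapped reads of each library.

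TE was tested with limma on log2(FPKM + 0.1) over all 12 libraries, a scale on which the pseudocount of 0.1 matters little at these levels, and p-values were adjusted over 18414 genes with a limit of 0.05. In Igf2bp3+/-, 3 of the 10 genes were called higher, where 18.6% of all genes were, and 3 were called lower, where 25.2% of all genes were. In Igf2bp3-/-, 3 genes were called higher against 12.5% of all genes, and 1 was called lower against 14.0%. The median log2 TE of the 10 genes was -0.08 in the control and -0.00 in the knockout, beside -0.10 and -0.04 over all genes. On the log2 scale all 10 genes had a mean above that of 50 FPKM, and among the 1905 tested genes at that level 38.4% were called higher and 21.6% lower in the control, with a median log2 TE of 0.19. In the knockout these shares were 31.3% and 12.5%, with a median of 0.15. With each library centred on its median, 4725 of 8346 called genes were on the higher side in the control, against 3420 of 8059 as scaled by the authors. The study's methods describe cells taken mouse by mouse and biological replicates, while the labels do not tie a library to an animal, so the p-values measure the spread between these libraries.

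**Figure D1:**
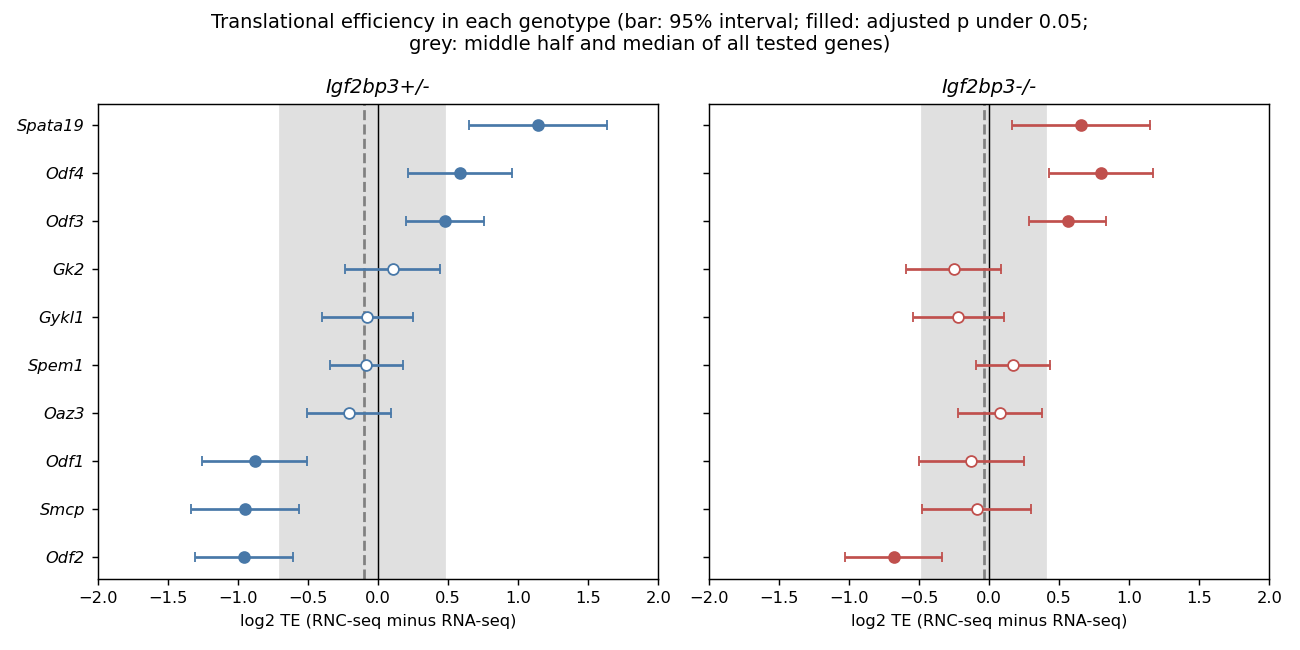
Log2 TE (RNC-seq minus RNA-seq, x axis) of the 10 genes in Igf2bp3+/- (left) and Igf2bp3-/- (right), with 95% intervals from limma. Filled points passed the limit of 0.05, the grey band spans the quartiles of all 18414 genes and the dashed line is their median. Odf1 and Smcp sit at -0.88 and -0.95 on the left and at -0.13 and -0.09 on the right.

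Odf1 encodes the main cysteine-rich protein of the fibers, related to the small heat-shock proteins, and lies on chromosome 15 at 38219203 to 38226735, on the plus strand. It was the least abundant of the 10 in RNA-seq, at 77.0, 85.3 and 65.2 FPKM in the control and 74.4, 58.2 and 65.2 in the knockout. In RNC-seq it read 36.2, 36.6 and 51.7 FPKM in the control and 69.7, 55.0 and 56.5 in the knockout. All 3 knockout RNC-seq libraries thus lay above all 3 control ones, whereas the RNA-seq groups overlapped.

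Log2 TE of Odf1 was -0.88 ± 0.17 (SE) in the control, an adjusted p of 0.00121. In the knockout it was -0.13 ± 0.17, an adjusted p of 0.632. The difference in log2 TE between genotypes was 0.75 ± 0.25, with a 95% interval of 0.23 to 1.28. Its p was 0.00852 before adjustment and 0.686 after, so that the test of the difference itself did not pass the limit. Leaving out each library in turn moved this difference between 0.65 and 0.92.

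Smcp encodes the cysteine-rich protein of the outer mitochondrial membrane in the sheath and lies on chromosome 3 at 92583867 to 92588997, on the minus strand. RNA-seq levels were 403, 392 and 314 FPKM in the control and 334, 288 and 286 in the knockout. RNC-seq levels were 184, 219 and 171 FPKM in the control and 349, 304 and 215 in the knockout. The genotypes overlapped in both assays, in RNC-seq only through the lowest knockout library (215) and the highest control library (219).

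Log2 TE of Smcp was -0.95 ± 0.18 in the control (adjusted p 0.000906) and -0.09 ± 0.18 in the knockout (adjusted p 0.753). The difference between genotypes was 0.86 ± 0.25, with an interval of 0.31 to 1.41, the highest of the 10 genes. It had a p of 0.00459 and an adjusted p of 0.686, and it moved between 0.71 and 1.06 when each library was left out. Among all genes tested, whatever their control TE, it stood at percentile 93.2, and Odf1 at 90.5. The quartiles of log2 TE over all genes were -0.70 and 0.48 in the control and -0.48 and 0.40 in the knockout, a narrower spread.

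Smcp and Odf1 lay low in the control for their coding length. Over all genes, log2 TE in the control went with coding length, with a median of 0.61 for 1099 genes under 150 codons, 0.20 for 2852 genes from 150 and under 300 codons, -0.19 for 4685 genes under 600, -0.61 for 3050 genes under 1200 and -1.28 for the 1070 longest. Smcp, with 143 codons, lay at -0.95 where the lower quartile of its length class was 0.04. Odf1, with 248 codons, lay at -0.88 where the lower quartile was -0.34. Odf2, with 638 codons, lay within the quartiles of its class, -1.05 and -0.22.

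Spata19 and Smcp make the plainest contrast, being nearly equal in coding length, at 154 and 143 codons, and both sheath proteins. Spata19 was loaded above its RNA level and Smcp below it in the control. Grouped by upstream ATG number, all genes gave a median control log2 TE of -0.21 with 0 and -0.28 with 1 or 2. With 3 or more, the class of Odf1, Odf2 and Smcp, the median was -0.27. Coding length was not held fixed in these classes. The part of upstream ATGs in the loading of Odf1, Odf2 and Smcp was not tested.

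**Figure D2:**
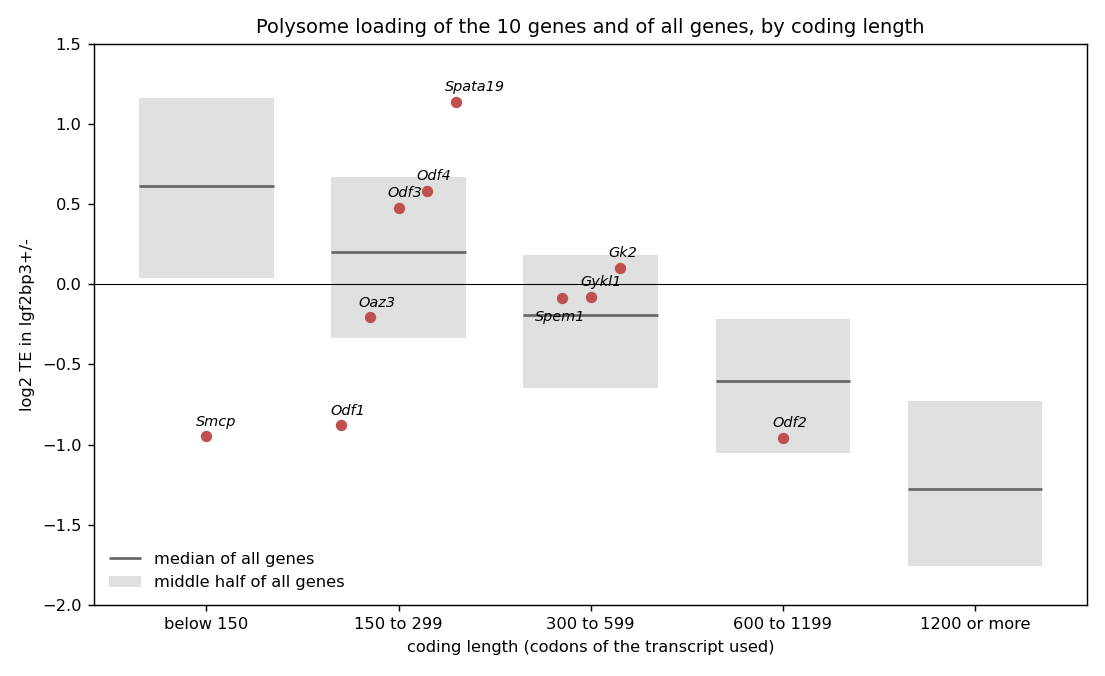
Log2 TE in Igf2bp3+/- (y axis) of the 10 genes (red points) by coding length in codons (x axis). Grey boxes span the quartiles of all genes in each length class and the dark line is the median, which goes from 0.61 in the shortest class to -1.28 in the longest. Smcp and Odf1 lie below the box of their class and Spata19 above it.

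Odf2 encodes the other major fiber protein, which also has centrosomal isoforms, and lies on chromosome 2 at 29889221 to 29931746, on the plus strand. It was the most abundant of the 10 and ranked 11 of 28643 genes in control RNA-seq. Levels were 1642, 1660 and 1794 FPKM in the control and 1606, 1685 and 1736 in the knockout, which overlap. In RNC-seq they were 786, 869 and 980 in the control and 1118, 1256 and 812 in the knockout. Each RNC-seq library of either genotype lay below each of its RNA-seq libraries.

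Log2 TE of Odf2 was -0.96 ± 0.16 in the control (adjusted p 0.000421) and -0.68 ± 0.16 in the knockout (adjusted p 0.00785). It was called lower in both, where 25.2% of all genes were in the control and 14.0% in the knockout. The share called lower in both was not computed. The difference of 0.28 ± 0.23 had an interval of -0.22 to 0.77. FPKM was summed by gene, so the fiber and centrosomal isoforms of Odf2 are not separated.

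Odf3 encodes a protein that lines sperm tail microtubules and is named for its link to the fibers, and lies on chromosome 7 at 140847805 to 140851018, on the plus strand. RNA-seq levels were 105, 101 and 92.9 FPKM in the control and 108, 114 and 126 in the knockout, with no overlap. RNC-seq levels were 143, 145 and 128 in the control and 183, 178 and 151 in the knockout, again with no overlap, and both were above RNA-seq. Of 18414 genes, 15.0% had all knockout libraries above all control ones in RNA-seq and 9.53% in RNC-seq. The share with both was not computed. The difference in log2 TE of Odf3 was 0.08 ± 0.18.

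Odf4 encodes a membrane protein of the sperm tail and lies on chromosome 11 at 68921835 to 68927081, on the minus strand. It measured 175, 191 and 163 FPKM in control RNA-seq and 187, 194 and 213 in knockout RNA-seq. In RNC-seq the control libraries were at 291, 245 and 258, and the knockout libraries at 290, 470 and 298. Knockout replicate 2 stood apart from the other 5, and without it the difference in log2 TE went from 0.21 to -0.01.

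Log2 TE of Odf3 was 0.48 ± 0.13 in the control (adjusted p 0.00884) and 0.56 ± 0.13 in the knockout (adjusted p 0.00662). Log2 TE of Odf4 was 0.58 ± 0.17 (adjusted p 0.0146) and 0.80 ± 0.17 (adjusted p 0.00476). Both genes were called higher in both genotypes, where 18.6% of all genes were in the control and 12.5% in the knockout. The share called higher in both was not computed. The Odf4 call in the control was lost without control RNA-seq replicate 3 (adjusted p 0.0554) and without control RNC-seq replicate 1 (adjusted p 0.0605), and Odf4 lost the call in both genotypes under quantile normalization.

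Spata19 encodes a protein that binds mitochondria to each other in the midpiece and lies on chromosome 9 at 27396800 to 27401785, on the plus strand. RNA-seq levels were 322, 335 and 240 FPKM in the control and 362, 389 and 427 in the knockout, with no overlap. RNC-seq levels were 813, 516 and 663 in the control and 649, 434 and 841 in the knockout, where the spread within a genotype exceeded the difference between genotypes.

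Log2 TE of Spata19 was 1.14 ± 0.23 in the control (adjusted p 0.00136), at percentile 92.9 of all genes. In the knockout it was 0.66 ± 0.23 with an adjusted p of 0.0481. That knockout call was lost in 5 of 6 fits that left out 1 library, those without RNA-seq replicate 1, 2 or 3 and without RNC-seq replicate 1 or 3, with an adjusted p of up to 0.198. The difference between genotypes was -0.48 ± 0.32, with an interval of -1.18 to 0.21. It moved between -0.70 and -0.23 when each library was left out, with -0.23 the value without knockout RNC-seq replicate 2.

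Gk2 and Gykl1 encode testis-specific relatives of glycerol kinase, of which Gk2 acts in the lining up of mitochondria in the sheath. Both are genes of 1 exon, Gk2 on chromosome 5 at 97455142 to 97457021 on the minus strand and Gykl1 on chromosome 18 at 52693690 to 52695550 on the plus strand. Their transcripts were 78.1% identical over 86.1% of the Gk2 transcript. This is an average over the alignment, and the assignment of reads between the genes was not tested. Glycerol kinase itself, Gk, was close to the filter at a mean of 0.353 FPKM in control RNA-seq.

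Gk2 read 576, 607 and 647 FPKM in control RNA-seq and 628, 711 and 753 in knockout RNA-seq. Gykl1 read 331, 354 and 348 in the control and 386, 417 and 491 in the knockout. Gk2 overlapped between genotypes and Gykl1 did not. In RNC-seq Gk2 was at 709, 511 and 776 in the control and 596, 544 and 613 in the knockout, and Gykl1 at 345, 266 and 378 against 354, 402 and 351. Control RNC-seq replicate 2 was the lowest of all 6 for both genes. The difference in log2 TE was -0.36 ± 0.22 for Gk2 and -0.14 ± 0.21 for Gykl1, neither past the limit.

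Oaz3, the testis-specific antizyme that restrains polyamine synthesis, lies on chromosome 3 at 94432414 to 94443915 on the minus strand and ranked 20 of all genes in control RNA-seq. It measured 1089, 1215 and 962 FPKM there and 1055, 1017 and 1070 in the knockout. RNC-seq levels were 1030, 797 and 1010 in the control and 1076, 1107 and 1138 in the knockout, which did not overlap. Log2 TE was -0.21 ± 0.14 in the control and 0.08 ± 0.14 in the knockout, and the difference of 0.29 ± 0.20 did not pass. Of the Oaz3 transcript, 36.4% lies over exons of Tdrkh on the opposite strand, and whether strand was used in counting is not stated. RNC-seq reads the loading of the mRNA and not whether ribosomes passed the stop triplet.

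Spem1, whose product acts in clearing cytoplasm from the head and neck of the spermatid, lies on chromosome 11 at 69820876 to 69822180 on the minus strand. It measured 123, 132 and 118 FPKM in control RNA-seq and 122, 132 and 131 in knockout RNA-seq, which overlap. RNC-seq levels were 124, 107 and 122 in the control and 157, 141 and 136 in the knockout, with no overlap. The difference in log2 TE was 0.25 ± 0.17, with an interval of -0.12 to 0.62.

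**Figure D3:**
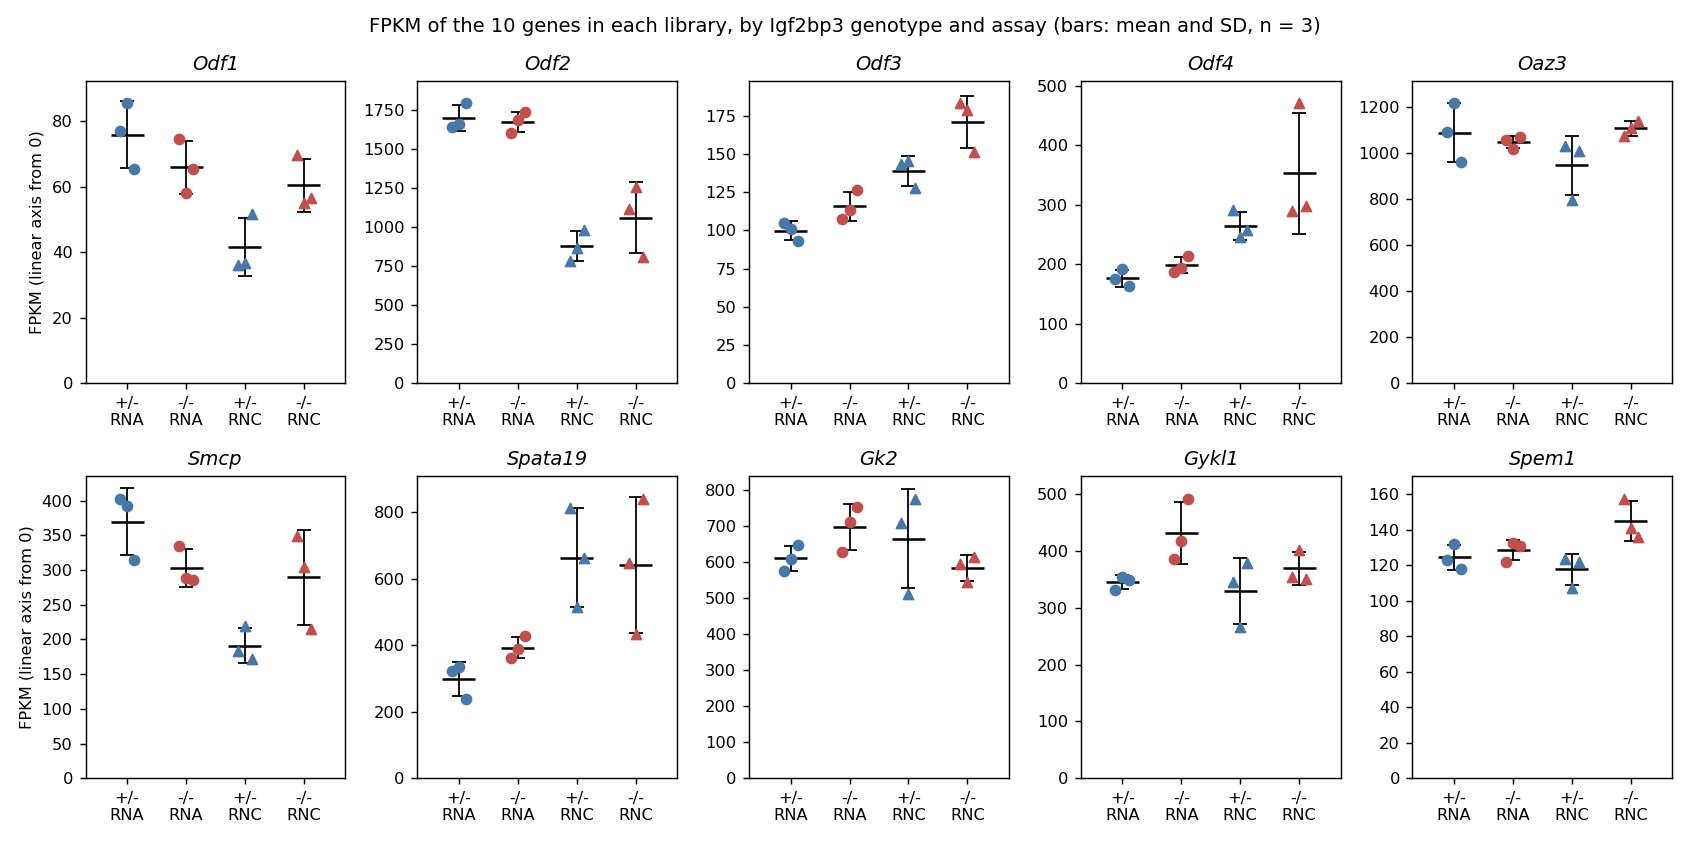
FPKM (y axis, linear from 0, a scale for each gene) in all 12 libraries, with circles for RNA-seq, triangles for RNC-seq, blue for Igf2bp3+/- and red for Igf2bp3-/-. Black lines are the mean and SD of 3 libraries. The RNC-seq points of Smcp, Odf1 and Odf2 lie below RNA-seq in the control, at means of 191, 41.5 and 878 FPKM against 370, 75.9 and 1699.

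By mean FPKM in control RNA-seq, a scale corrected for length, the order was Odf2 (1699), Oaz3 (1089), Gk2 (610), Smcp (370), Gykl1 (344), Spata19 (299), Odf4 (176), Spem1 (124), Odf3 (99.7) and Odf1 (75.9). Libraries of neighbors in this order overlapped for Smcp and Gykl1, and for Spata19 with both of them. Libraries of the other neighbors did not overlap. The 10 genes together took 1% to 1.06% of the summed FPKM in RNA-seq and 0.642% to 0.88% in RNC-seq.

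Between genotypes, none of the 10 genes passed the limit in RNA-seq, RNC-seq or TE. In RNA-seq, 0.197% of all 20352 genes were called higher in the knockout and 0.0590% lower. In RNC-seq, 0.0787% of 19051 genes were called higher and 0.0367% lower, and in TE 0.00543% higher and 0.00% lower. With so few calls over the whole table, 0 of 10 is close to what the table gives. Of the RNC-seq calls, 15 of 22 were higher, and 6 of 13 with each library centred on its median.

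At an unadjusted p under 0.05, limma gave 4 of the 10 genes in RNA-seq, where it gave 15.7% of all genes, 2 in RNC-seq (6.48% of all) and 2 in TE (7.13% of all). In RNA-seq these were Spata19 at a log2 difference of 0.41 ± 0.13 (adjusted p 0.230), Gykl1 at 0.32 ± 0.10 (0.223), Odf3 at 0.21 ± 0.09 (0.314) and Smcp at -0.28 ± 0.12 (0.301). In RNC-seq they were Smcp at 0.58 ± 0.22 and Odf1 at 0.55 ± 0.22, each with an adjusted p of 0.744. Smcp was thus lower in knockout RNA-seq and higher in knockout RNC-seq by estimates that each failed the adjusted test.

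Counted by libraries, 3 of the 10 genes had all knockout RNA-seq libraries above all control ones, where 15.0% of 18414 genes did, and 0 had them all below, where 8.31% did. In RNC-seq 4 of the 10 lay fully above (Odf1, Odf3, Oaz3 and Spem1) against 9.53% of genes, and 0 fully below against 1.79%. For RNC-seq against RNA-seq in the control the counts were 3 above and 3 below, beside 22.7% and 32.9% of genes. In the knockout they were 5 above and 2 below, beside 19.2% and 21.5%.

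The RNC-seq values of the 10 genes had a median log2 difference of 0.28, against 0.13 over all genes. The cause of these differences was not tested. A transcript annotated as CT010467.1 took 15.9% to 19.4% of the summed FPKM in control RNC-seq and 8.14% to 14.6% in knockout RNC-seq. With all libraries rescaled without it, the RNC-seq difference was 0.47 for Smcp and 0.44 for Odf1, and the TE difference 0.80 and 0.69.

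**Figure D4:**
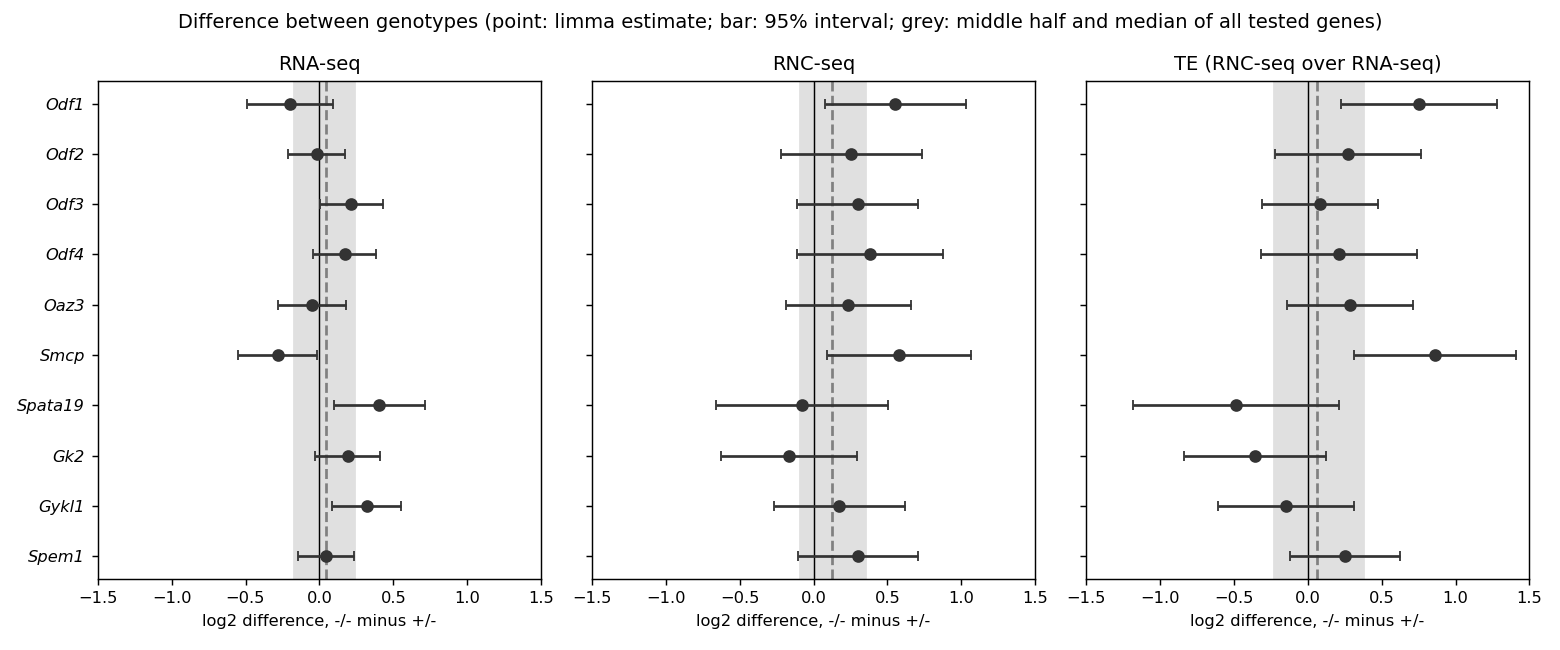
Log2 difference between genotypes (Igf2bp3-/- minus Igf2bp3+/-, x axis) of the 10 genes in RNA-seq, RNC-seq and TE, with 95% intervals from limma; the grey band spans the quartiles of all tested genes and the dashed line is their median. The intervals of Smcp and Odf1 in TE, from 0.31 and 0.23 upward, lie above 0, and no gene passed the adjusted limit.

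Markers of Leydig cells and of macrophages and blood were at unequal levels between genotypes in these sorts, whereas Sertoli markers overlapped. The Sertoli markers summed to 0.382 to 0.568 FPKM in control and 0.524 to 0.858 in knockout RNA-seq, and to 0.0394 to 0.308 and 0.257 to 0.51 in RNC-seq. The 6 Leydig markers, led by Insl3, summed to 6.16 to 13.9 FPKM in control RNC-seq and 50.4 to 100.5 in knockout RNC-seq. The 6 macrophage and blood markers summed to 5.65 to 6.40 in control and 11.9 to 14.3 in knockout RNA-seq, and to 11.0 to 14.5 and 15.8 to 32.1 in RNC-seq. Round spermatid markers summed to 1048 to 1188 in control and 1336 to 1554 in knockout RNA-seq, and to 1411 to 1657 and 1651 to 1935 in RNC-seq, where the groups just overlapped.

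Markers of elongating spermatids and of spermatocytes overlapped between genotypes in both assays. The 7 markers of elongating spermatids, of which the protamine and transition protein mRNAs are already stored in round cells, summed to 8790 to 11324 and 9848 to 10051 in RNA-seq. In RNC-seq they ran from 12132 to 14632 in the control and from 10818 to 21944 in the knockout. Spermatocyte markers summed to 86.5 to 105 in control and 98.8 to 123 in knockout RNA-seq, and to 108 to 203 and 92.3 to 154 in RNC-seq. The 5 spermatogonial markers summed to at most 4.06 FPKM in any library. They overlapped in RNA-seq but not in RNC-seq, at 2.90 to 3.65 in the control and 3.71 to 3.89 in the knockout. The part of these cell types and stages in the values of the 10 genes was not tested.

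A further 34 genes were followed in 4 groups, as relatives, partners or a neighbor of those above or as sheath and sperm mitochondrial genes. Of these, 33 could be tested in RNA-seq and 32 in the other comparisons. None passed the limit between genotypes, and at an unadjusted p under 0.05 limma gave 8 in RNA-seq, 5 in RNC-seq and 1 in TE, beside 15.7%, 6.48% and 7.13% of all genes. In TE in the control 5 of 32 were called higher and 15 lower, beside 18.6% and 25.2% of all genes, and in the knockout 4 and 7, beside 12.5% and 14.0%. The same shares stand beside each group. The ODF relatives and partners gave 1 higher and 4 lower of 8 in the control, and 0 and 1 in the knockout. The 14 genes of the sheath and of sperm mitochondria gave 4 and 5, then 3 and 3. The 7 glycerol kinase and antizyme relatives gave 0 and 3, then 1 and 1, and the 3 partners and neighbor of Spem1 gave 0 and 3, then 0 and 2.

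Both the highest and the lowest loading among these genes in the control were of sheath and mitochondrial genes. Cyct, the testis form of cytochrome c, had a log2 TE of 1.46 ± 0.25 (adjusted p 0.000445), and Cox6b2, the testis form of a cytochrome oxidase subunit, 1.21 ± 0.15 (adjusted p 5.9e-05). Cyct went from 63.9, 71.6 and 54.2 FPKM in RNA-seq to 222, 133 and 176 in RNC-seq. Spata18, which acts in mitochondrial quality control, had a log2 TE of -1.82 ± 0.25 and Azin1, an inhibitor of antizymes, -1.55 ± 0.22, both with an adjusted p of 0.000111. Spata18 went from 198, 201 and 239 FPKM in RNA-seq to 52.5, 64.9 and 63.4 in RNC-seq.

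Between genotypes the companion genes farthest from 0 in RNA-seq were Tssk4, a kinase that acts on ODF2, at a log2 difference of 0.40 ± 0.09 (adjusted p 0.152), Cyct at 0.35 ± 0.13, Gk5 at -0.52 ± 0.39 and Ubqln1, a ubiquilin that binds SPEM1, at -0.43 ± 0.12 (adjusted p 0.199). In RNC-seq they were Gk at 0.98 ± 0.42, Odf3b at 0.69 ± 0.26, Slc25a31 at -0.30 ± 0.23 and Spag5 at -0.18 ± 0.21. In TE they were Gk at 1.12 ± 0.53, Odf3b at 0.76 ± 0.28, Vdac3 at -0.45 ± 0.22 and Cyct at -0.43 ± 0.35. Gk and Gk5 lay near the filter, at no more than 0.573 FPKM in any library.

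**Figure D5:**
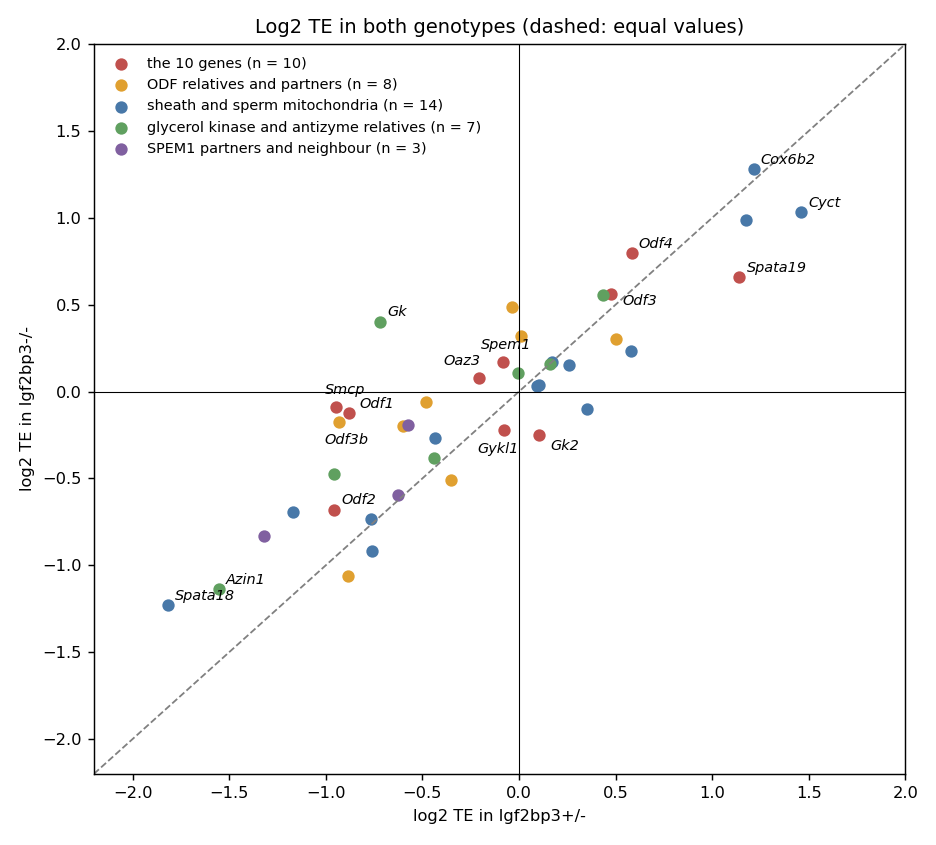
Log2 TE in Igf2bp3+/- (x axis) against log2 TE in Igf2bp3-/- (y axis) for the 10 genes (red) and 32 companion genes, colored by group, with a dashed line of equal values. Odf1, Smcp and Odf3b lie above the line at low control values, as do others such as Spata18 and Azin1. Spag5 and Nsun7, also at low control values, lie below the line. Odf3 and Cox6b2 lie close to it.

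Among 5393 other genes with a mean of at least 10 FPKM, the gene with the most similar profile over the 12 libraries was found for each of the 10 by Euclidean distance between log2 values centred on each gene's own mean. For Smcp it was Wbp2nl, which encodes a sperm head protein, at a distance of 0.457 where the median gene lay at 1.73. For Odf1 it was Hnrnpa2b1, an RNA-binding protein, at 0.525 against a median of 1.65. Odf2 was nearest to Cnot10 (0.215), Odf3 to Aprt (0.207), Odf4 to Sdr39u1 (0.380) and Oaz3 to Tasp1 (0.284). Spata19 was nearest to Mrpl32 (0.297), Gk2 to Cct8 (0.241), Gykl1 to Gramd1c (0.208) and Spem1 to Bsdc1 (0.168). The profiles of Odf1, Smcp and Odf4 thus had the most distant nearest neighbors of the 10.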

How the data were processed

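Total input and polysomal mRNA (4 or more ribosomes) of sorted round spermatids were sequenced in 3 libraries for each of 2 genotypes. The authors deposited FPKM per gene symbol, made by trimming (Trim Galore 0.6.6), alignment to GRCm38 (HISAT2) and quantification with StringTie 2.1.7, per the methods and the submitters' processing notes; the annotation release and the use of strand are not given in the sources used here. The labels and the methods name different library kits and instruments. FPKM is scaled to mapped reads, so values are relative, and without counts the depth and the counting error are unknown. Of 28668 rows, 25 symbols turned into dates (0.0995% of the summed FPKM) were left out.

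Values were tested as log2(FPKM + 0.1) with limma 3.58.1 (R 4.3.3, variance trend, two-sided, Benjamini-Hochberg over all genes tested, limit 0.05). Genotype was tested within each assay (6 libraries), and genes needed a mean above 0.1. TE (RNC-seq minus RNA-seq) and its difference between genotypes came from a fit of all 12 libraries. A fold on this scale understates the change of low genes. The scripts were checked on simulated data. Transcripts, positions and sequences came from GENCODE M21 (GRCm38), which held 27839 of 28643 symbols, with 1 principal coding transcript per gene. Copies were searched with BLAST 2.17.0.

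All 10 genes are named. Of 34 companion genes, those past the limit between genotypes were to be named, with the 2 highest and 2 lowest in each genotype comparison and in control TE. The genes and lists were chosen with earlier results of these data known. Odf3l2 was not analysed here. Alternatives covered the pseudocount, the filter, scaling, the replicate block, the fit and each library left out.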

Additional observations from a re-analysis of the deposited data

How the results depend on the processing

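No call on the 10 genes between genotypes appeared under any setting tried, in RNA-seq, RNC-seq or TE. The number of all genes past the limit was less steady. In RNA-seq it was 52, and 31 with no filter. In RNC-seq it was 22, and 2 with no filter, 13 with each library centred on its median, 12 under quantile normalization and 48 in a fit over all 12 libraries. In TE it was 1, and 0 with a pseudocount of 1, with a mean above 1, and with TE computed per replicate. The paired fit with a replicate block gave 4 genes in RNA-seq, 31 in RNC-seq and 0 in TE, with Smcp at an adjusted p of 0.445 and Odf1 at 0.515 in TE. By the methods, input and polysomal RNA come from a shared extract, but no source says that the numbers match between assays. Deviations of same-numbered libraries correlated between -0.112 and 0.231, above 0.1 in 4 of 6 pairs, so the pairing was not established. Leaving out each library gave 9 to 38 genes in RNA-seq (9 without knockout replicate 1 or 2), 0 to 20 in RNC-seq (0 without knockout replicate 1), 1 to 2 in TE (2 without control RNC-seq replicate 3), and 3089 to 6227 in knockout TE, against 4886 (3089 without RNA-seq replicate 2).

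Under quantile normalization the median over the 10 genes moved to -0.0487 in RNA-seq, 0.0907 in RNC-seq, -0.32 in control TE and -0.19 in knockout TE. With each library centred on its median, control TE moved to 0.0892. Directions that turned were small. In RNA-seq quantile normalization gave -0.0013 for Odf4 and -0.0960 for Spem1, and rescaling without CT010467.1 gave -0.0017 for Spem1. For the TE difference, Odf3 was -0.0465 when centred. In control TE, Gykl1 was 0.0921 and Spem1 0.0864 when centred, 0.0447 and 0.0389 without CT010467.1, and Gk2 was -0.25 under quantile normalization. In knockout TE quantile normalization gave -0.18 for Oaz3 and -0.0395 for Spem1. Leaving out 1 library turned Oaz3 (-0.14 to 0.0322) and Odf2 (-0.0452 to 0.0208) in RNA-seq, Spata19 (-0.30 to 0.18) in RNC-seq, Odf4 (-0.0128 to 0.34) in the TE difference, Gykl1 (-0.18 to 0.0710) and Gk2 (-0.0173 to 0.28) in control TE, and Smcp (-0.24 to 0.11) in knockout TE. Spata19 in knockout TE also lost its call with no filter (adjusted p 0.0730), under quantile normalization (0.143) and in a fit over its own 6 libraries (0.0744). Odf4 lost it under quantile normalization in both genotypes (0.300 and 0.0632). Quantile normalization brought calls on the lower side for Oaz3 and Spem1 in control TE (0.00461 and 0.0249) and for Gk2 and Gykl1 in knockout TE (0.00751 and 0.0152). The causes were not tested. Calls of Odf1, Odf2, Smcp, Odf3 and Spata19 in control TE were kept under every setting. Depth is unknown.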

Other observations

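Gpx4, which turns from an enzyme into a structural protein of the mitochondrial capsule, measured 1347, 1407 and 1231 FPKM in control RNA-seq and 3311, 3099 and 2611 in control RNC-seq. Its log2 TE was 1.17 ± 0.15 (limma, adjusted p 5.2e-05) in the control and 0.98 ± 0.15 (adjusted p 0.000516) in the knockout. Smcp, which encodes the other capsule protein followed here, was at -0.95 in the same control libraries, so that the mRNAs of these 2 genes were loaded in opposite directions. FPKM was summed by gene, so transcripts of Gpx4 for different protein forms are not separated. Gpx4 was named after its values were seen.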
